A study of Mus musculus with 8 samples.

Results

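m6A peaks were examined over 9 genes of the FGF and ERK pathway in mouse embryonic stem cells (ESCs): the ligand gene Fgf4, the receptor gene Fgfr1, and 7 genes of feedback inhibitors and target transcription factors, namely Dusp6, Spry2, Spry4, Spred1, Spred2, Etv4 and Etv5. A peak was assigned to a gene when its exon blocks and a GENCODE exon of that gene had 1 base or more in common on the same strand. By this rule the 9 genes carried 34 of the 18895 peaks of the DMSO list and 18 of the 13001 peaks of the Dox list. None of these peaks also lay in an exon of another gene on that strand.

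In methylated RNA immunoprecipitation sequencing, an antibody captures the poly(A) RNA fragments that bear N6-methyladenosine (m6A), and this IP RNA is sequenced beside input RNA that was not selected. The cells were E14 mouse ESCs, given either the solvent DMSO or doxycycline (Dox) for 24 h on gelatin with leukemia inhibitory factor and serum replacement. All 4 groups (IP and input from each treatment, with 2 replicates and thus 8 libraries in all) carried a Dux transgene that Dox turns on and a tdTomato reporter behind the Mervl promoter. DUX drives ESCs toward a 2-cell-like state, and the comparison asks how peaks over these transcripts differed once it had been induced. There was 1 peak list per treatment. No value therefore has a replicate error, no test between treatments was made, and intervals are 95% Wilson intervals (for a ratio, derived from that of the DMSO share) of counting error alone. Peaks of 1 gene share its transcript and are not replicates.

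FGF4 is secreted by ESCs and binds FGFR1 on the same cells and their neighbours, and the signal then runs through Ras, Raf and MEK to ERK. In ESCs this route moves cells out of naive pluripotency toward differentiation. ERK also turns on brakes of its own, among them the phosphatase DUSP6 and Sprouty proteins, to which the related SPRED proteins add, and it raises the ETS transcription factors ETV4 and ETV5, widely used as readouts of the pathway. m6A is laid down mostly in the DRACH context (any base but C, a purine, A, C, any base but G), of which GGAC is a frequent core, and is often found in long internal exons and around stop codons.

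Sequences at the peaks are shown first, read 5′ to 3′ on the strand of the gene from the mm10 reference genome (RefSeq copy of GRCm38) and not from the cells themselves. The 24-base windows hold a GGAC, in capitals, that lay inside a peak of both lists, and were chosen to show the stop codon regions of Fgf4, Fgfr1 and Etv5, the long 3′UTR peak of Fgf4, the first exon and coding sequence of Spry2, and the coding sequence of Spred2.
Fgf4, coding, chr7:144862867-144862890, plus strand: aagaacgggcGGACcaagaagggg
Fgf4, 3′UTR, chr7:144863392-144863415, plus strand: tttactccagGGACagaagtcctc
Fgf4, 3′UTR, chr7:144863526-144863549, plus strand: tgccatttttGGACtggccaacag
Fgfr1, coding, chr8:25573818-25573841, plus strand: cctcaggggaGGACtctgtcttct
Fgfr1, coding, chr8:25573894-25573917, plus strand: tgccaacagtGGACtcaaacggcg
Fgfr1, 3′UTR, chr8:25573982-25574005, plus strand: tccccttgttGGACacactgcctt
Spry2, 5′UTR, chr14:105896690-105896713, minus strand: cttggaagttGGACtgaagcagag
Spry2, coding, chr14:105893201-105893224, minus strand: acaggtgtgaGGACtgcggcaagt
Spry2, coding, chr14:105893147-105893170, minus strand: ccctgccgtcGGACtggatctgtg
Spred2, coding, chr11:20020933-20020956, plus strand: cagaagacgcGGACtcctacgtgc
Spred2, coding, chr11:20021005-20021028, plus strand: ttgattcttcGGACttcggcttcg
Etv5, coding, chr16:22383556-22383579, minus strand: tcaatgaggaGGACacgctgcctc
Etv5, coding, chr16:22383508-22383531, minus strand: cttacctcctGGACatggatcgct
Each of these windows also fits DRACH. The next sequences are whole Dox peaks in coding sequence, with every DRACH match in capitals. They are shown because these short stretches were what the Dox list held of Spred1 and Etv4, because the Dusp6 peak holds 2 GGAC close together, and because the Etv5 peak had the highest score of any Dox peak over the 9 genes and yet holds 0 GGAC.
Dusp6, 150 nt, chr10:99266108-99266257, plus strand: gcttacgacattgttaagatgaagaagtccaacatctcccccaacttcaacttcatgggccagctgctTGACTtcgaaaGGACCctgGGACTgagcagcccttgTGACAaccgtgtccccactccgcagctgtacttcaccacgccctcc
Spred1, 75 nt, chr2:117177496-117177570, plus strand: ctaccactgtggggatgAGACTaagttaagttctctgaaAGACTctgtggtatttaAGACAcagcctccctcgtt
Etv4, 75 nt spliced from 2 exons, chr11:101774243-101775389, minus strand: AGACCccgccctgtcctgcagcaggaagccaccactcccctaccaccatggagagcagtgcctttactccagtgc
Etv5, 250 nt spliced from 2 exons, chr16:22401763-22411713, minus strand: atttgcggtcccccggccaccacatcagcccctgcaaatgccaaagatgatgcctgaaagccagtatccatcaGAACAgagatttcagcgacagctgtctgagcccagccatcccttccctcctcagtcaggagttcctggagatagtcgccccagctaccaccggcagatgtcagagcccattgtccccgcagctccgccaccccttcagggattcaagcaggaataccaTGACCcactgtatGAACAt
These peaks hold 4, 3, 1 and 3 DRACH matches in this order, and a match is a description of the letters, not a mapped m6A site.

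The DMSO list held more peaks and more peak-covered bases over the pathway genes than the Dox list. The 34 DMSO peaks against 18 Dox peaks gave a ratio of 1.89 (95% interval 1.07 to 3.32), and over all peaks the ratio was 1.45 (1.42 to 1.49). The exon blocks covered 8012 nt in the DMSO list and 5187 nt in the Dox list, which were 19.2% and 12.5% of the 41654 exonic nt of the 9 genes. This ratio of 1.54 lay beside 1.47 over all peaks. Of the covered bases, 4962 nt lay in both lists, 61.9% of the DMSO bases and 95.7% of the Dox bases. The Dox peaks of these genes thus lay almost wholly inside the DMSO territory. Over all peaks these shares of bases were not computed, but 92.7% of all Dox peaks overlapped a DMSO peak. With as many top-scoring DMSO peaks as the Dox list holds, 27 DMSO peaks and 18 Dox peaks were left over these genes, 7462 nt against 5187 nt.

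**Figure D1:**
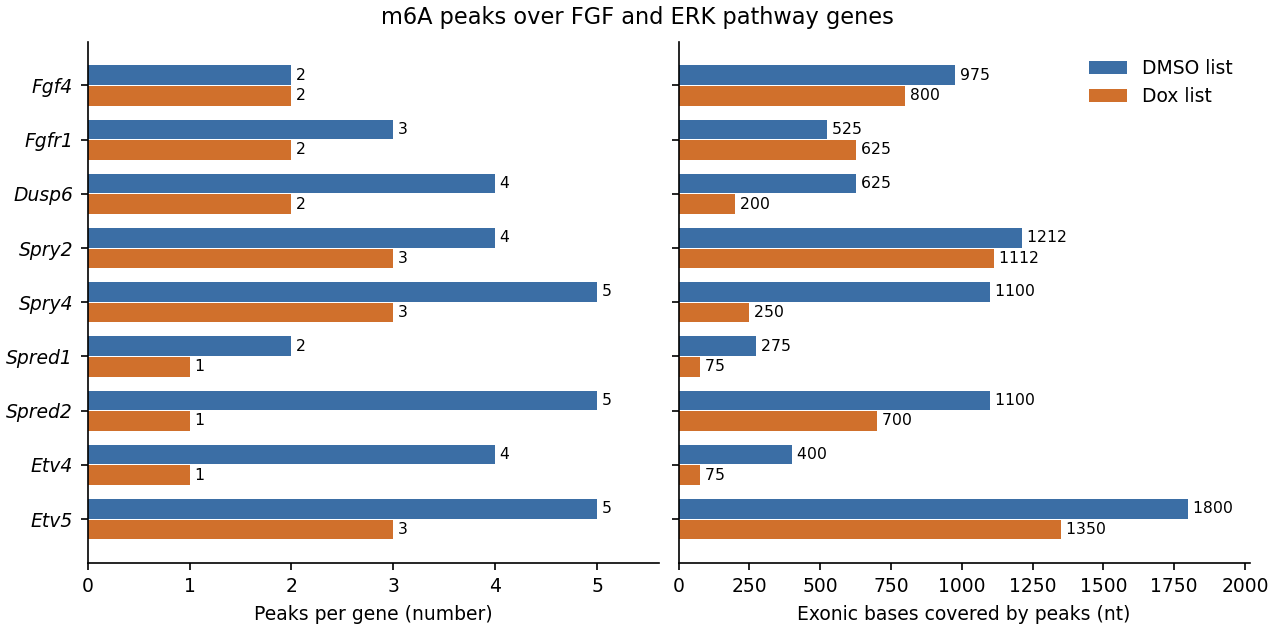
Number of m6A peaks (left, peaks per gene) and exonic bases covered by peaks (right, nt) for each of the 9 genes, in the DMSO list (blue) and the Dox list (orange); 1 list per treatment, so there are no error bars. Fgf4 had 2 peaks in both lists, and Fgfr1 was the 1 gene with more bases covered in Dox (625 nt) than in DMSO (525 nt).

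All 9 genes had a DMSO peak, against 27.5% of the 22028 protein-coding genes, and all 9 had a Dox peak, against 22.2%. Among protein-coding genes of their length range (2087 to 9875 exonic nt), 32.0% had one in DMSO and 25.4% in Dox. Each of the 9 had at least 2 DMSO peaks, against 18.5% of protein-coding genes. The 9 genes were chosen with earlier results of these data known, so these shares cannot show an enrichment of peaks in the pathway. Among the 4083 genes with at least 2 DMSO peaks, 88.0% also had a Dox peak, 69.3% had fewer Dox peaks and 92.1% had fewer Dox bases, and the pathway genes numbered 9 of 9, 8 of 9 and 8 of 9 by the same measures. At least 2 times as many bases were covered in DMSO as in Dox for 4 of the 9 genes (Dusp6, Spry4, Spred1 and Etv4), against a background of 38.3%. The median of Dox over DMSO covered bases was 0.636 for the 9 genes (0.188 to 1.19) and 0.625 for the 4083 genes. The lower coverage in Dox was thus of the size seen among genes with at least 2 DMSO peaks, and the 9 genes differed widely among themselves. That comparison set was picked by its DMSO peaks alone, so genes with fewer DMSO peaks were left out, whatever their Dox peaks. Peak calling needs reads, so in RNA from whole cultures fewer cells with a transcript, less of it per cell and less m6A on it cannot be told apart here.

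Fgf4, the ligand, had the same 2 regions in both lists. Its gene (ENSMUSG00000050917.5) lies on chromosome 7 from 144847367 to 144865243 on the plus strand, and both of its DMSO peaks lay in the last of 3 exons. The first, of 250 nt, ran across the stop codon from 144862849 to 144863098 and had a Dox partner of 225 nt that began at the same base. The second, of 725 nt, lay in the 3′UTR from 144863124 to 144863848, and its Dox partner of 575 nt also began at the same base. Both Dox peaks were thus shorter at the 3′ end alone, by 25 and 150 nt. The score deposited with each peak, taken from its range of values for a −log10 p-value, was 11.8 for the second peak in DMSO and 17.2 in Dox. Ranked within its own list, where the percentile is the share of peaks with a lower score, that peak stood at a percentile of 53.8 in DMSO and of 95.5 in Dox, each among the peaks of that list alone. All 8 GGAC inside the Fgf4 DMSO peaks, those printed above included, also lay inside a Dox peak.

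Fgfr1, the main FGF receptor gene of ESCs (ENSMUSG00000031565.18, chromosome 8, 25513654 to 25575718, plus strand), was the 1 gene of the 9 with more covered bases in Dox. It had 3 DMSO peaks over 525 nt and 2 Dox peaks over 625 nt. A 5′UTR peak in its first exon measured 175 nt in DMSO and 300 nt in Dox, where it began 125 nt further upstream and ended at the same base, at percentiles of 26.4 and 63.9. The peak across the stop codon measured 325 nt in both lists, shifted by 25 nt, with 300 nt in common. It covered 81.0% of the window reaching 200 nt to either side of the stop codon in DMSO and 81.0% in Dox. A 3′UTR peak of 25 nt was found in the DMSO list alone. The 2 Fgfr1 regions in both lists thus sat in the first exon and at the stop codon of a transcript of 18 exons, with none between them.

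Dusp6 encodes the phosphatase that removes the activating phosphates from ERK (ENSMUSG00000019960.8, chromosome 10, 99263231 to 99267489, plus strand). Its 4 DMSO peaks covered 625 nt and its 2 Dox peaks 200 nt, a ratio of 3.13. In exon 2, a DMSO peak of 225 nt had a Dox partner of 50 nt, at percentiles of 46.7 and 6.18. At the end of the coding sequence, a DMSO peak of 225 nt from 99266083 to 99266307 had as partner the 150 nt peak printed above, at percentiles of 80.6 and 72.1. The 3′UTR peak of 125 nt, from 99266483 to 99266607, was found in DMSO alone although it stood at a percentile of 78.3 and held 4 GGAC. Of the 10 GGAC in Dusp6 DMSO peaks, 3 lay in a Dox peak, and the 7 others lay both in the coding sequence and in the 3′UTR.

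The Sprouty genes Spry2 and Spry4 encode inhibitors that act between the receptor and Raf, and their peak coverage in Dox differed widely. Spry2 (ENSMUSG00000022114.5, chromosome 14, 105891947 to 105896819, minus strand) had the largest share of its exons covered of the 9 genes, 58.1% in DMSO and 53.3% in Dox. A peak of 262 nt, spliced from the first exon into the second, measured 312 nt in Dox. A coding peak measured 675 nt in DMSO and 700 nt in Dox, and together with its neighbours it brought 86.3% and 86.8% of the coding sequence into a peak. That coding peak had the highest score of the 34 DMSO peaks, 18.4, at a percentile of 95.5, and stood at 13.3 and a percentile of 82.0 in Dox. The peak at the stop codon measured 200 nt in DMSO and 100 nt in Dox, at percentiles of 73.7 and 14.2, and a 3′UTR peak of 75 nt was in DMSO alone. Spry2 thus had like coverage of its coding sequence and 5′UTR in both lists and less in Dox at the stop codon and beyond.

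Spry4 (ENSMUSG00000024427.7, chromosome 18, 38586247 to 38601415, minus strand) had most of its coding coverage in the DMSO list alone. Its 5 DMSO peaks covered 1100 nt and its 3 Dox peaks 250 nt, a ratio of 4.40. Of the coding sequence, 70.9% lay in a DMSO peak and 5.56% in a Dox peak, and around the stop codon the shares were 93.8% and 9.73%. A coding peak of 325 nt was in DMSO alone, the longest such peak of the 9 genes. The peak of 425 nt across the stop codon had a Dox partner of 75 nt that lay wholly in the 3′UTR. A 3′UTR peak of 175 nt had a Dox partner of 125 nt, at percentiles of 84.0 and 64.1, and with 71.4% of the DMSO peak in common this was the Spry4 region with the largest shared part. None of the 4 GGAC in Spry4 DMSO peaks lay in a Dox peak, whereas 9 of the 10 GGAC in Spry2 DMSO peaks did.

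**Figure D2:**
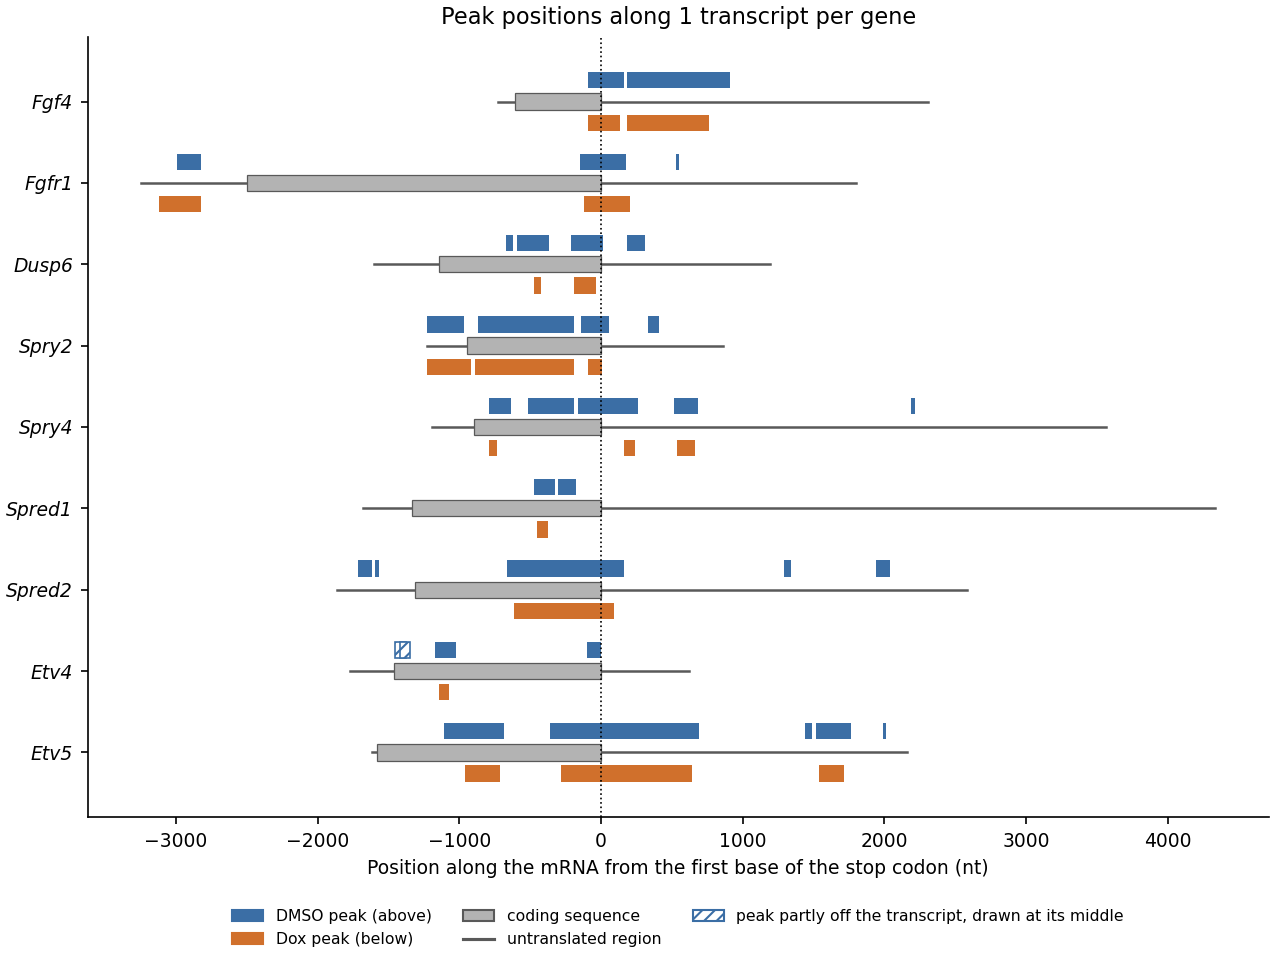
Peaks along the transcript of each gene that has the longest coding sequence, with the distance along the mRNA from the first base of the stop codon in nt on the horizontal axis; DMSO peaks are drawn above (blue) and Dox peaks below (orange) the coding sequence (grey box) and untranslated regions (line). The 5 DMSO and 3 Dox peaks of Spry4 differ over the coding sequence, while those of Fgf4 begin at the same bases.

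The Spred genes encode inhibitors that bring the Ras GTPase activator neurofibromin to the membrane. Spred1 (ENSMUSG00000027351.14, chromosome 2, 117121374 to 117182279, plus strand) had the smallest share of exons covered of the 9 genes, 4.05% in DMSO and 1.11% in Dox. Its DMSO peaks of 150 and 125 nt lay side by side in the coding part of the last exon, and its 3′UTR of 4333 nt held no peak in either list. The Dox list held the 75 nt printed above, inside the first of them. Spred2 (ENSMUSG00000045671.17, chromosome 11, 19924375 to 20024026, plus strand) carried 1100 nt in 5 DMSO peaks and 700 nt in 1 Dox peak. That Dox peak lay inside a DMSO peak of 825 nt that reached across the stop codon, and both held the 3 GGAC of this region. The other 4 DMSO peaks, 2 in the 5′UTR and 2 in the 3′UTR, were in DMSO alone. The 5′UTR peak of 100 nt, from 19924525 to 19924624, stood at a percentile of 91.0, the highest of the 16 DMSO peaks of these genes that no Dox peak overlapped. Spred2 thus had 1 long region in both lists and 4 short ones in DMSO alone.

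The ETS genes Etv4 and Etv5 encode closely related activators that respond to FGF. Etv4 (ENSMUSG00000017724.14, chromosome 11, 101769742 to 101785371, minus strand) had the largest ratio of covered bases of the 9, 5.33, with 400 nt in 4 DMSO peaks and 75 nt in 1 Dox peak. Its 3 DMSO peaks without a partner, of 75, 75 and 100 nt, lay near the start and at the end of the coding sequence. The remaining peak, spliced from 2 exons, measured 150 nt in DMSO and 75 nt in Dox at percentiles of 72.3 and 14.9. Etv5 (ENSMUSG00000013089.15, chromosome 16, 22381309 to 22439719, minus strand) had the most covered bases of the 9, 1800 nt in 5 DMSO peaks and 1350 nt in 3 Dox peaks. Its longest peak measured 1050 nt in DMSO and 925 nt in Dox and covered 100% of the stop codon window in both lists. Its spliced coding peak, at a score of 16.3 in DMSO and 19.3 in Dox, stood at percentiles of 92.5 and 96.9. Of the DMSO bases, 18.8% of those of Etv4 and 75% of those of Etv5 also lay in a Dox peak.

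Peaks of Etv5 had a near copy elsewhere. Of its 5 DMSO peaks, 4 matched one stretch of chromosome 10 on the plus strand with 97.9% to 100% identity, and all 3 of its Dox peaks did with 97.7% to 99.6%. The processed pseudogene Gm4798 is annotated over part of that stretch, and no peak was called there in either list. The Spred2 DMSO peak of 100 nt in the 3′UTR, from 20023383 to 20023482 at a percentile of 10.9, matched a place on chromosome X with 98% identity. Without these 5 DMSO and 3 Dox peaks, 29 DMSO and 15 Dox peaks were left, a ratio of 1.93, and whether reads of the copies contributed was not tested.

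Every Dox peak of these genes had at least 1 base in common with a DMSO peak. All 18 Dox peaks overlapped a DMSO peak (100%, 82.4 to 100), and 0 were in Dox alone (0 to 17.6%), against a background of 7.31%. The overlapped share of Dox peaks was 94.4% at equal list sizes and 90.9% among peaks scoring at or above the DMSO median. It stayed at 100% where 50% of the peak had to overlap, and was 83.3% where 50% of both peaks had to. Of the 34 DMSO peaks, 18 overlapped a Dox peak (52.9%, 36.7 to 68.5) and 16 were in DMSO alone (47.1%, 31.5 to 63.3), against a background of 43.0%. The overlapping DMSO peaks were longer and ranked higher than those in DMSO alone, with medians of 250 against 75 nt and percentiles of 73.0 against 45.8. Over the whole DMSO list these medians were 200 against 50 nt and 64.0 against 28.1. Short, low-ranked peaks were thus the ones most often without a partner, with the Spred2 5′UTR peak, the Dusp6 3′UTR peak and an Etv4 peak at a percentile of 78.8 as the highest-ranked of them.

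The 18 overlaps formed 18 one-to-one pairs. The DMSO peak was the longer in 14 pairs (77.8%, against 68.9% of 8891 pairs over all genes), the Dox peak in 3, which were the Fgfr1 5′UTR peak and the Spry2 5′UTR and coding peaks, and the lengths were equal in 1. Median lengths were 250 nt in DMSO and 200 nt in Dox, and 14 of the 18 Dox peaks lay inside their partner. Over all genes the medians were 200 and 150 nt, and 7480 of the 8891 Dox peaks lay inside. By rank within its list, the DMSO peak stood higher in 14 pairs (77.8%, against 62.1%). The Dox peak stood higher in 4 pairs: the Fgf4 3′UTR peak, the Fgfr1 5′UTR peak, and the coding and stop codon peaks of Etv5. The other Fgf4, Fgfr1 and Etv5 pairs stood higher in DMSO. The lists differ in length, so a percentile gives a place within a list and not a change of the peak.

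**Figure D3:**
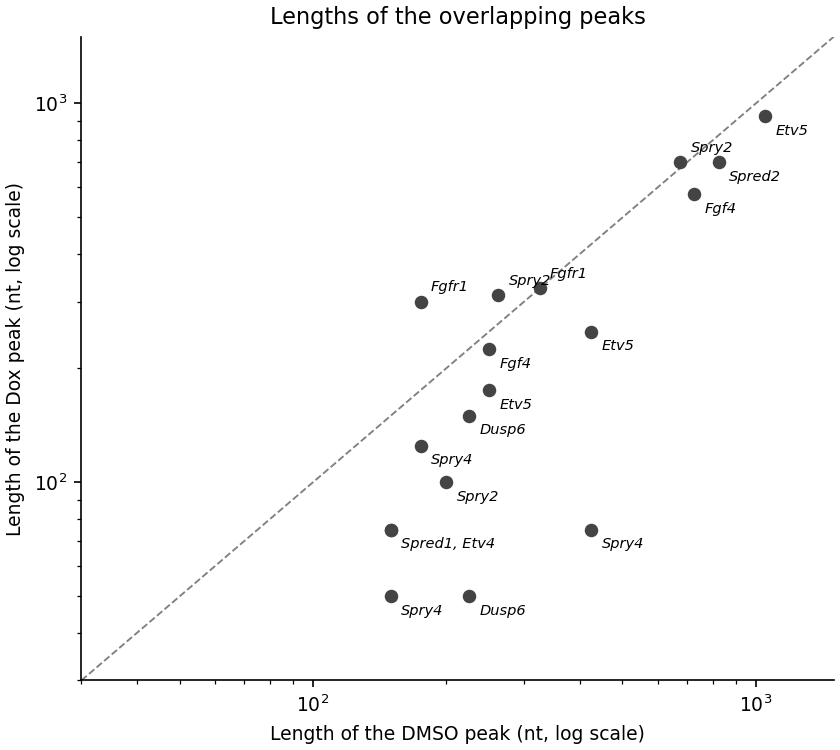
Length of the Dox peak against the length of the DMSO peak for the 18 overlapping pairs, both in nt on log axes, with a dashed line of equal length; each point is 1 pair, and Spred1 and Etv4 share 1 point. Of the pairs, 14 lie below the line, 1 on it and 3 above it (Fgfr1 and Spry2).

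**Figure D4:**
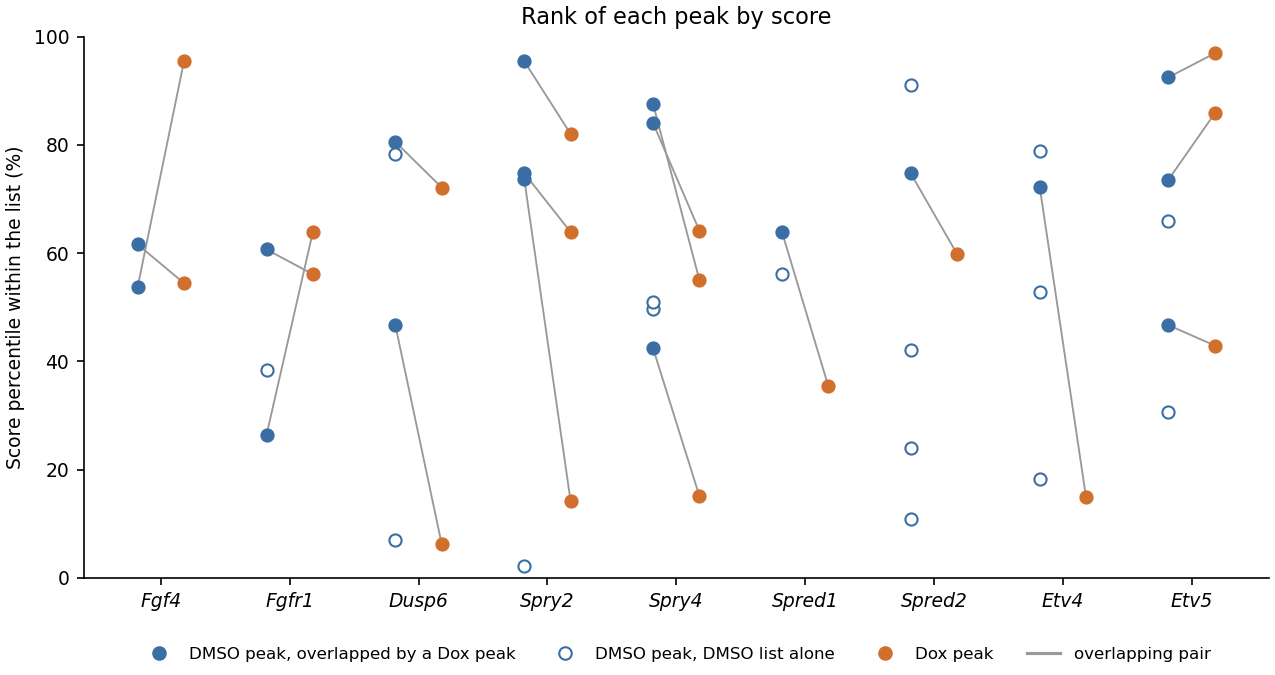
Percentile of each peak by score within its own list (vertical axis, %) for the 9 genes, with DMSO peaks in blue (filled where a Dox peak overlaps, open where none does), Dox peaks in orange and lines joining overlapping pairs. The Fgf4 3′UTR pair stands at 53.8 in DMSO and 95.5 in Dox, and the Etv4 pair at 72.3 and 14.9.

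By position, the DMSO peaks of these genes lay in untranslated regions in a larger share than DMSO peaks in general. The middle base of the DMSO peak lay in the 5′UTR for 4 of 34 (11.8%, 4.67 to 26.6), in coding sequence for 15 (44.1%, 28.9 to 60.5) and in the 3′UTR for 15 (44.1%, 28.9 to 60.5), against 3.43%, 71.9% and 24.7% over all DMSO peaks. In the Dox list the numbers were 2 of 18 (11.1%, 3.10 to 32.8), 9 of 18 (50%, 29.0 to 71.0) and 7 of 18 (38.9%, 20.3 to 61.4), against 3.85%, 71.0% and 25.1% over all Dox peaks, so that the intervals of both untranslated regions held the share over all peaks. The last exon held 24 of the 34 DMSO peaks (70.6%) and 13 of the 18 Dox peaks (72.2%), and last exons made up 69.1% of the transcript length of these genes. Over all peaks the shares in the last exon were 43.3% and 46.6%. The middle of the peak was no more than 200 nt from the start of the stop codon for 7 of 34 DMSO peaks (20.6%, 10.3 to 36.8; all peaks 22.9%) and 6 of 18 Dox peaks (33.3%, 16.3 to 56.3; all peaks 25.1%). Counted by bases, 63.5% of the 3609 nt around the stop codons lay in a DMSO peak and 43.0% in a Dox peak. The coding sequence was covered to 36.2% and 21.9%, the 3′UTR to 16.2% and 10.4%, and the 5′UTR to 17.8% and 18.5%. The 3′UTR made up 56.5% of the transcript length of these genes and held 39.5% of their DMSO peak bases. Coding sequence made up 34.3% of the length and held 53.5% of those bases. Coverage of the 5′UTR came from 3 genes, with 175 nt in DMSO and 300 nt in Dox for Fgfr1, 262 and 283 nt for Spry2, and 125 and 0 nt for Spred2.

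GGAC lay in 17 of the 34 DMSO peaks (50%, 34.1 to 65.9) and in 11 of the 18 Dox peaks (61.1%, 38.6 to 79.7), against 54.0% and 55.9% of all peaks. DRACH, which includes most GGAC, lay in 29 DMSO peaks (85.3%) and 17 Dox peaks (94.4%), against 84.9% and 85.4%. Both motifs were searched on the strand of the peak, and the share holding one grows with length. Among DMSO peaks over 300 nt, 7 of 8 held GGAC (92.3% over all genes), and among those of 25 to 75 nt, 2 of 10 did (24.0%). Per 1000 nt of transcript, the 9 genes pooled held 7.26 GGAC in bases covered in both lists and 5.65 in bases covered in DMSO alone. They held 8.89 in bases covered in Dox alone (2 GGAC in 225 nt) and 3.63 outside peaks. By gene, bases covered in both lists were denser in GGAC than those outside peaks for Fgf4, Fgfr1, Dusp6 and Spry2. For Spry4, Spred1, Spred2, Etv4 and Etv5 they were less dense. Spry4, Spred1 and Etv4 had only 250, 75 and 75 nt covered in both lists, with 0 GGAC. For Spred2 the densities were close, 4.29 in both lists and 4.78 outside peaks per 1000 nt. These differences by gene were not tested. Of the 150 GGAC in these transcripts, 53 lay in a DMSO peak and 38 in a Dox peak. For Spry4, Spred1 and Etv4 the number in Dox peaks was 0, and for Fgf4, Fgfr1, Spry2, Spred2 and Etv5 it was 8, 8, 9, 3 and 7, against 8, 7, 10, 3 and 8 in DMSO.

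Of 72 other genes of the pathway, 35 carried peaks in DMSO (48.6%) and 28 in Dox (38.9%), 27 in both and 36 in neither. Over all protein-coding genes the shares with a peak were 27.5% in DMSO and 22.2% in Dox. The list was chosen with earlier results of these data known, so its shares cannot show an enrichment of peaks. The 72 genes carried 86 DMSO and 58 Dox peaks, a ratio of 1.48 beside 1.45 over all peaks. Fewer bases were covered in Dox for 29 of them, against 2 with more (Spry1 and Jun). This count was not made over all genes with a peak, but 92.1% of the 4083 genes with at least 2 DMSO peaks had fewer Dox bases. None of the 6 other ligand genes had a peak. Fgf4, the only ligand gene of those examined with one, was chosen with earlier results of these data known. Of 8 receptor and co-receptor genes, 3 had a peak in both lists, which were Fgfr2 (210 and 201 nt) and the heparan sulfate enzymes Ext1 (1025 and 475 nt) and Hs2st1 (275 nt in both). Of the adaptors that link the receptor to Ras, 7 of 10 genes had peaks in both lists. Gab1, the docking protein with the highest score of these classes (41.6 in DMSO and 25.5 in Dox), had 1625 nt covered in DMSO and 1475 nt in Dox. Crkl had 1375 and 1200 nt, and Frs2, the adaptor that FGF receptors phosphorylate, 775 and 525 nt.

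Among Ras genes and their regulators, 4 of 8 had a peak in DMSO and 3 in Dox, with Hras at 475 and 425 nt, Nf1 at 350 and 75 nt and Nras at 225 and 75 nt. Among kinases, 8 of 14 had a peak in DMSO and 5 in Dox. Araf, the MEK gene Map2k1 and Rps6ka3 had one in DMSO alone (100, 275 and 50 nt), and Rps6ka1 had 800 nt in both and Shoc2 600 and 250 nt. These classes held no gene with a peak in Dox alone.

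Of 12 other feedback inhibitors, 5 had a peak in DMSO and 4 in Dox. Dusp9, an ERK phosphatase, and Errfi1, an inhibitor of EGF receptors, had one in DMSO alone, each over 175 nt. Spry1, another Sprouty gene, had none in DMSO and 3 in Dox, which covered 75 nt in all. It was the 1 pathway gene with a peak in Dox alone. Cbl, a ubiquitin ligase for receptors, had 750 and 500 nt, Dusp1 had 200 nt in both, and Il17rd had 200 and 75 nt. Of 14 other target transcription factors, 8 had a peak in DMSO and 6 in Dox, with Elk1 (175 nt) and Elk3 (75 nt) in DMSO alone, Ier2 at 1250 nt in both, Ets2 at 525 and 250 nt and Srf at 525 and 450 nt.

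**Figure D5:**
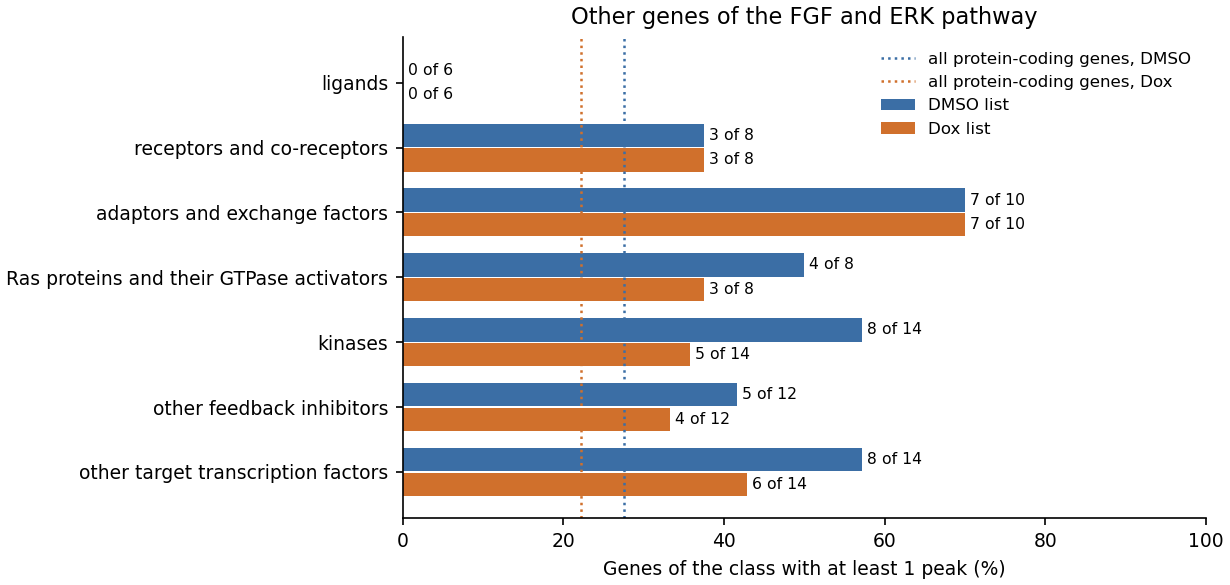
Share of the genes of each class of the 72 other pathway genes with at least 1 peak (horizontal axis, %), in the DMSO list (blue) and the Dox list (orange), with the number of genes beside each bar; dotted lines mark all protein-coding genes (27.5% in DMSO, 22.2% in Dox). Adaptors stood at 7 of 10 in both lists, and ligands at 0 of 6.

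Cell identity was checked by peaks alone, which need expression as well as m6A. All 8 pluripotency markers had a peak in both lists. Of 8 markers of 2-cell-like cells, 3 had a peak in DMSO (Zscan4c, Zscan4d and Zscan4f, copies of 1 gene family whose reads can be shared) and 8 in Dox, with 9 and 23 peaks. The list includes Duxf3, of the gene family of the induced transgene, with 0 peaks in DMSO and 4 in Dox, and the part of the transgene in these counts was not tested. Of 8 primitive endoderm markers, 1 (Lama1) had a peak in DMSO and 0 had one in Dox. Among 8 feeder fibroblast markers, 1 (Fn1) had peaks in both lists, 21 over 4400 nt in DMSO and 14 over 2925 nt in Dox. The part of a changed cell mixture in the values above was not tested, and read depth per library, which also raises the number of peaks, was not analysed here.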

How the data were processed

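MeRIP-seq peaks of mouse ESCs (E14) were used as deposited, 1 list per treatment. Per the labels and methods, the authors trimmed reads with fastp 0.19.4, mapped them to mm10 with HISAT2 2.2.1 and called peaks with exomePeak2, whose version, settings and handling of replicates are not given in the sources used here. The deposited value of each peak was taken for a −log10 p-value, since the lowest was 10.0 and 4 were infinite; whether it was adjusted is not stated. It served to rank and filter. A deeper library gives more peaks, and depth was not analysed here.

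Peaks were joined to GENCODE M21 exons by strand, and 99.9% of the inner edges of spliced peaks lay at exon edges in both lists. Near copies were matches by blastn 2.17.0 of 95% identity or more over at least 50% of a peak. Scripts ran in Python 3.11.15 (numpy 2.4.6, pysam 0.24.0, matplotlib 3.10.9) and were tested on simulated data.

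The members and the pathway and marker lists were chosen with earlier results of these data known. Named were all 9 members, pathway genes with a peak in 1 list alone, up to 3 genes per class with most covered bases, and markers where 3 or fewer had a peak. Some genes that this rule names are not reported here. Jun and Gm4798 were named after their values were seen. Alternatives covered the score threshold, list size, overlap, introns, strand, transcript, touching peaks, the motif and the stop codon window. Short peaks and near copies were added after seeing the data.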

Additional observations from a re-analysis of the deposited data

How the results depend on the processing

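Of 76 alternative values for 14 results, 68 stayed within the set margin. DMSO exceeded Dox in 18 of 18 settings that gave peaks or bases of both lists. These settings counted the same peaks, or part of them, again, and the DMSO list was the longer one, so they were not independent. Peaks scoring at or above the DMSO median (11.6) numbered 21 over the 9 genes in DMSO and 11 in Dox, and other pathway genes with such a peak numbered 21 and 12. With introns included, the peaks spanned 33058 nt in DMSO and 21811 nt in Dox. With DRACH in place of GGAC, the shares were 85.3% and 94.4%. The genes with a Dox peak numbered 7 at that score threshold and 7 among peaks over 75 nt, with Spred1 and Etv4 lost in both cases, and 8 without near copies, with Etv5 lost; all 9 had a DMSO peak throughout. Taking equal list sizes leaves the Dox list as it is. No paired analysis was possible because both replicates of a treatment share a single peak list, which also kept single replicates from being left out. Single-nucleotide positions of m6A and its level per transcript cannot be read from peaks, and depth limits how short or weak peaks can be compared.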
